A study of Mus musculus with 6 samples.

Results

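The genes described here build the contractile and calcium-release machinery of the fast muscle fibre. They are 49 genes taken by symbol: 11 of the thin filament, 7 of the thick filament, 3 of the M-band, 15 of the Z-disc, 3 ankyrin-repeat genes whose proteins bind titin, and 10 of the triad and calcium handling. The measured members numbered 48, out of 22180 genes with a probe set that names 1 gene alone, since Mybph, a myosin-binding protein, was not analysed here. A gene with several such probe sets was read from the brightest one.

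Muscle came from the tibialis anterior, a mostly fast-twitch muscle of the shin, of male C57Bl/6 mice aged 18 weeks, and was hybridised to Affymetrix whole-transcript arrays. The castrated group (3 samples) had the testes removed at 11 weeks of age and carries the diet label refed. The sham group (3 samples) had a sham operation at the same age and carries the diet label fasted. All mice recovered for 7 weeks and fasted overnight. The refed label refers to 30 minutes of access to food followed by 4 hours without it, whereas the protocol text describes that meal for every mouse. Surgery and diet label split the samples in the same way, so their effects cannot be told apart. The question named by the series is what castration does to gene expression in muscle.

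A sarcomere runs between Z-discs, where alpha-actinin crosslinks the thin filaments. Thick filaments sit between them and are joined at the M-band by myomesins, and titin spans from the Z-disc to the M-band. Calcium released by the ryanodine receptor at the triad binds troponin and lets myosin pull on actin, and the calcium pump of the sarcoplasmic reticulum then takes it back up. Fast fibres use their own troponins, myosin light chains and calcium pump, but the list is not confined to fast fibres: Mybpc1, Csrp3, Ankrd2 and Myom3 are also known from slow or mixed fibres.

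The label fits the tissue as measured. Of the 48 members, 35 lay among the 222 genes in the top 1% by log2 signal, and 1, Sln, lay below the 50th percentile. The muscle enzymes and myofibre proteins Ckm, Mb, Acta1, Myh4, Pygm and Eno3 all lay at or above the 99.8th percentile. Cardiac genes (Myh6, Tnni3, Nppa, Nppb, Mybpc3, Ryr2) had means between 4.48 and 5.65, around or below the array medians of 5.05 to 5.10 in castrated and 5.04 in sham samples. A probe set's log2 value is a signal of that probe set. Percentiles and summed levels given here therefore describe array signal, and do not compare RNA amounts of different genes.

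Some samples stood apart in ways that touch these genes. Castrated sample 1 had more slow-fibre signal: the slow myosin Myh7 read 7.41, 5.17 and 5.11 in castrated samples, against 5.32, 5.39 and 5.40 in sham samples. Castrated sample 2 held the lowest of the 6 values for 16 members and the highest for 15. Sham sample 3 held the lowest value for 17, and sham sample 1 the highest for 14. Over all genes, castrated sample 2 was lowest for 16.4% and highest for 15.3%, sham sample 3 was lowest for 19.2% and sham sample 1 was highest for 16.6%.

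Promoter sequences are shown for 4 members, none of which passed the threshold over all genes. Smpx had the smallest p of the list. Myom3, Ankrd1 and Ankrd2 differed more among castrated samples than between groups, as did other members, Flnc, Xirp1 and Csrp3 among them. The RefSeq promoter table of build GRCm38.p6 held 32 of the 49 members with 38 start sites. Each run is the 250 bases before an annotated start, 5′ to 3′ on the gene's strand. Capitals mark the E-box CANNTG, which muscle regulatory factors bind, CATTCC, the core of the M-CAT element of TEAD factors, TATAAA, and the MEF2 site, all searched on both strands. No 2 of these motifs overlap in the runs shown.
Smpx, chrX:157698723-157698972, plus strand: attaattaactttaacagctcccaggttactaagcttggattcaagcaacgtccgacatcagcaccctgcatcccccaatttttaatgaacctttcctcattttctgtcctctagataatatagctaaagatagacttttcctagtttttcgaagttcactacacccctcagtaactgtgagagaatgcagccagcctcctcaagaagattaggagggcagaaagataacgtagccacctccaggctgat
Myom3, chr4:135759465-135759714, plus strand: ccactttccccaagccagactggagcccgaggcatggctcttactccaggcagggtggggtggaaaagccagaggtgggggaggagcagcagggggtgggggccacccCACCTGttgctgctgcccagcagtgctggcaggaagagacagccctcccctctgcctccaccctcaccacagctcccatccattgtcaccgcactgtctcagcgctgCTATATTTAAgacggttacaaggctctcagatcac
Ankrd1, chr19:36119845-36120094, minus strand: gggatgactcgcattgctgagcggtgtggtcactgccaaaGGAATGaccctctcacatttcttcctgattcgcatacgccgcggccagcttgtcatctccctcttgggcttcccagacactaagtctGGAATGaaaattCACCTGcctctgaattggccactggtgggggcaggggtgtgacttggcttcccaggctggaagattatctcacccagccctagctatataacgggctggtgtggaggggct
Ankrd2, chr19:42035777-42036026, plus strand: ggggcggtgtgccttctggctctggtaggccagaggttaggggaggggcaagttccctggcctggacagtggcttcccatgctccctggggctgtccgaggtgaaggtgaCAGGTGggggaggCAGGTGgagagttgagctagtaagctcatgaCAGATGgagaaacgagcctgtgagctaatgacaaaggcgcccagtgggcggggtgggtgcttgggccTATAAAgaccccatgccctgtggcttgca

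None of these letters occurs in the Smpx window. Ankrd2 holds 3 E-boxes and a TATAAA 29 bases before the start, Ankrd1 holds 1 E-box and 2 CATTCC on the other strand (printed as GGAATG), and Myom3 holds 1 E-box and a MEF2 site 35 bases before the start. CANNTG occurred in 78.9% of the members' 38 windows, against 66.2% of 32851 windows of the same length. CATTCC occurred in 21.1% of the members' windows against 12.6%, the MEF2 site in 10.5% against 2.92%, and TATAAA in 10.5% against 12.4%. These are descriptions of letters, not of bound sites.

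In the median, the mRNA signals of these genes differed little between castrated and sham muscle. The arrays do not measure protein or force, and a difference that misses the threshold does not show equality. No member passed the threshold over all genes (0 of 48, limma adjusted p under 0.05), against 0.0135% of all genes, and the smallest adjusted p among members was 0.685. At an unadjusted p under 0.05 there was 1 member, Smpx, lower in castrated samples, against 7.13% of all genes. By direction that is 1 member lower, against 3.51% of all genes, and 0 higher, against 3.62%. The median log2 difference over members, castrated minus sham, was −0.021, with 21 members above 0 (48.5% of all genes) and 27 below (51.5% of all genes). The median over all genes was −0.0056. Among genes at or above the 90th percentile of level, where 45 members lie, 61.4% were below 0 and the median was −0.033. The members therefore show no downward lean beyond that of genes of like level. In bulk muscle, fewer cells of a type and less RNA per cell cannot be told apart.

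The 95% interval of the difference lay wholly within 1.5-fold either way for 42 of 48 members, against 87.2% of all genes. The share of members, 87.5%, is near that background and below the 93.2% of genes at or above the 90th percentile of level, where 45 members lie, so it is no result about the members. The 6 members with wider intervals were Lmod2, Myom3, Csrp3, Flnc, Xirp1 and Ankrd1. Each of these genes was lowest in castrated sample 2. No member differed by more than 1.5-fold, and 0.627% of all genes did.

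**Figure D1:**
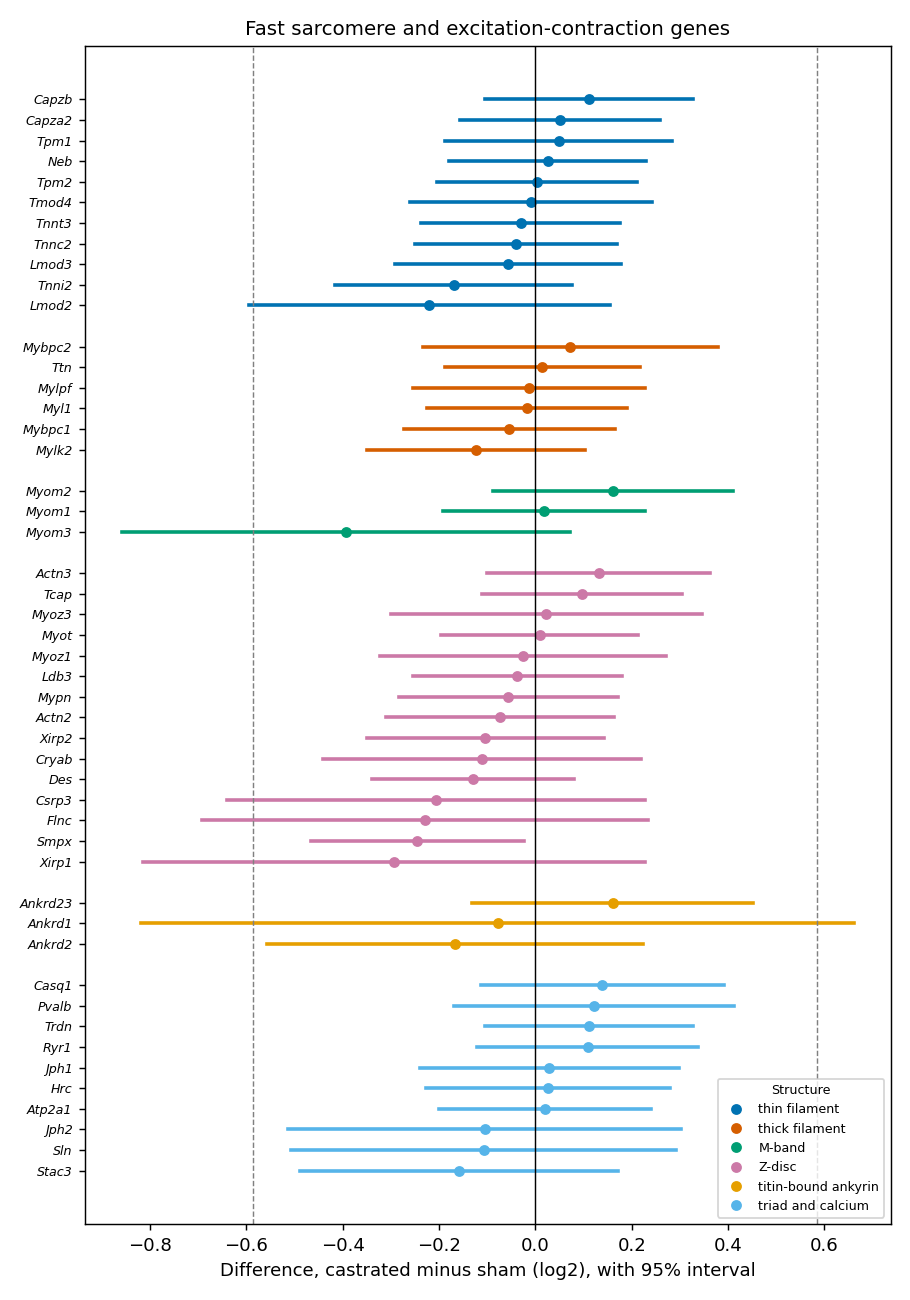
Log2 difference, castrated minus sham, for the 48 measured members, grouped by structure from the thin filament at the top to the triad at the bottom. Points are limma estimates (n = 3 per group), bars are 95% intervals and dashed lines mark 1.5-fold. The Smpx interval alone excludes 0, and 6 intervals cross a dashed line.

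Thin filament genes differed by between −0.22 and 0.11, with a median of −0.0085. Of the 11 members 5 stood above 0 and 6 below, and none passed. Nebulin, Neb, a ruler protein along the actin filament, read 13.33, 13.37 and 13.39 in castrated samples, against 13.31, 13.35 and 13.36 in sham samples. These groups overlap, and the difference was 0.025 (95% interval −0.18 to 0.23). The fast troponin T gene Tnnt3 and the troponin C gene Tnnc2 likewise overlapped between groups, as did the tropomyosins Tpm1 and Tpm2 and the capping protein genes Capza2 and Capzb.

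Tnni2, fast troponin I, the subunit that blocks contraction at low calcium, was the thin filament gene with the smallest p. It read 12.00, 11.96 and 12.01 in castrated samples, against 12.34, 12.07 and 12.06 in sham samples. The groups did not overlap, but sham sample 1 stood well above the other sham samples. The difference was −0.17 (SE 0.11, limma adjusted p = 0.787), and −0.078 without sham sample 1.

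Leiomodin 2, Lmod2, promotes growth of the actin filament at its pointed end. It read 11.19, 10.84 and 11.14 in castrated samples, against 11.02, 11.19 and 11.62 in sham samples. The lowest value was that of castrated sample 2 and the highest that of sham sample 3. The difference was −0.22 (95% interval −0.59 to 0.16), −0.049 without sham sample 3 and −0.35 without sham sample 1. Its relatives Lmod3 and Tmod4, which cap or extend the same end, overlapped between groups.

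Acta1, the adult skeletal actin, differed by −0.046 (SE 0.092, limma adjusted p = 0.940). Actc1, cardiac alpha-actin, read 10.67, 10.76 and 10.86 in castrated samples, against 9.09, 9.18 and 9.21 in sham samples. It rose 3.04-fold in castrated samples (limma adjusted p = 0.00136, and 0.312 without variance moderation). It is no member of the list, and both actins are given because these proteins bind them.

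Thick filament genes differed by between −0.12 and 0.072, a narrower range, and all 6 measured members had intervals within 1.5-fold. Titin, Ttn, read 13.22, 13.24 and 13.23 in castrated samples, against 13.20, 13.23 and 13.21 in sham samples. Its values spanned 0.038 over all 6 arrays, and the difference was 0.014 (95% interval −0.19 to 0.22). The interval is wide beside that span because limma draws each gene's variance towards the variance of all genes, and the smallest SE of any member was 0.089.

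Mylpf, the fast regulatory light chain of myosin, read 12.46, 12.61 and 12.48 in castrated samples, against 12.66, 12.51 and 12.42 in sham samples, a difference of −0.014 (95% interval −0.25 to 0.23). Mylk2, the skeletal kinase that phosphorylates that light chain, read 11.82, 12.00 and 11.98 in castrated samples, against 12.11, 12.09 and 11.98 in sham samples. Its groups overlapped narrowly, and the difference was −0.12 (SE 0.10, limma adjusted p = 0.830), and −0.069 without castrated sample 1, the lowest array.

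The myosin-binding C proteins cross-link myosin and tune its access to actin. Mybpc1, the slow-type gene, differed by −0.054 (SE 0.096, limma adjusted p = 0.931) and Mybpc2, the fast-type gene, by 0.072 (SE 0.14, limma adjusted p = 0.932). Mybpc2 read 12.36, 12.56 and 12.40 in castrated samples, against 12.55, 12.46 and 12.09 in sham samples, so sham sample 3 was the low one, and without it the difference was −0.064. The fast myosin heavy chains that make up the filament differed by −0.17 for Myh1, 0.020 for Myh2 and 0.021 for Myh4. None of the 3 passed over all genes.

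At the M-band the 3 myomesins differed in sign. Myom3, found in a subset of fibres, had the largest difference in size of any member and read 7.99, 7.08 and 7.73 in castrated samples, against 7.91, 7.95 and 8.12 in sham samples. Castrated sample 2 was far below the rest, and castrated sample 1 lay inside the sham range. The difference was −0.39 (SE 0.20, 95% interval −0.86 to 0.071, limma adjusted p = 0.749), −0.14 without castrated sample 2 and −0.59 without castrated sample 1. Myom2, of fast fibres, read 11.55, 11.65 and 11.75 in castrated samples, against 11.52, 11.61 and 11.34 in sham samples. Its difference was 0.16 (SE 0.11, limma adjusted p = 0.798), and 0.088 without sham sample 3.

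Z-disc genes had the lowest median of the larger groups, −0.073, with 11 of 15 members below 0. Of all genes 51.5% were below 0, and 61.4% of those at or above the 90th percentile of level. No member passed over all genes, and without castrated sample 2 the median was 0.0039, with 8 above 0 and 7 below. Smpx, a small X-linked muscle protein of the Z-disc and costamere region, read 9.85, 9.77 and 9.80 in castrated samples, against 9.95, 10.08 and 10.14 in sham samples. All castrated values lay under all sham values. Castrated samples averaged 9.81 ± 0.037 and sham samples 10.05 ± 0.097 (SD, n = 3 each), a difference of −0.25 (SE 0.098, 95% interval −0.47 to −0.024), or 1.19-fold lower. Its limma adjusted p was 0.685. The difference kept its sign without any 1 sample, between −0.30 and −0.20.

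Of the 48 members 4 had groups that did not overlap, against 12.8% of all genes. These were Tcap, higher in castrated samples (1 member, against 5.73% of all genes), and Smpx, Tnni2 and Des, lower (3 members, against 7.02%). Of 3 against 3 samples the exact two-sided permutation p of a single gene cannot go below 0.10. Desmin, Des, the intermediate filament that links neighbouring Z-discs, read 12.36, 12.33 and 12.35 in castrated samples, against 12.53, 12.48 and 12.41 in sham samples. The difference was −0.13 (SE 0.093, limma adjusted p = 0.808). Telethonin, Tcap, which caps the Z-disc end of titin, read 12.03, 12.01 and 12.10 in castrated samples, against 11.93, 11.99 and 11.93 in sham samples. Its difference was 0.096 (SE 0.092, limma adjusted p = 0.856), and its groups overlapped when arrays were centred on their medians.

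**Figure D2:**
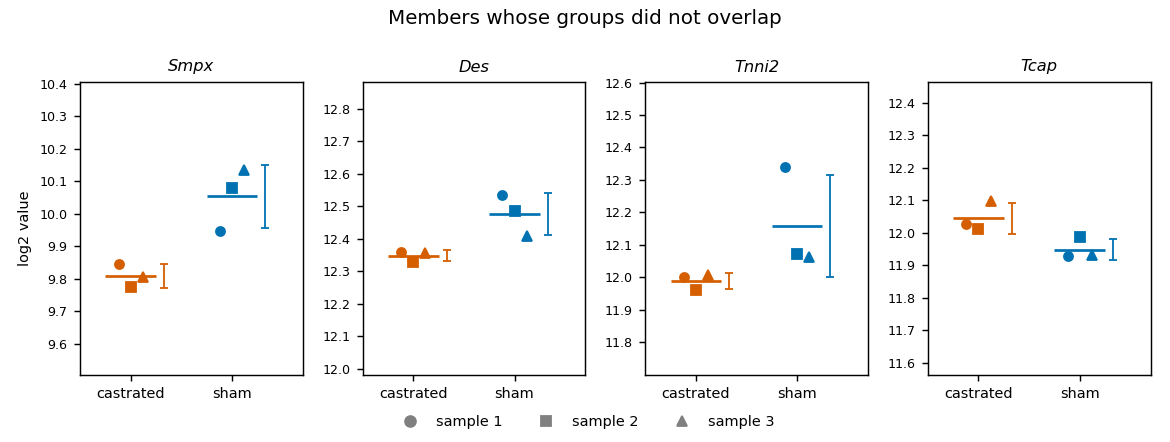
Log2 values of Smpx, Des, Tnni2 and Tcap in castrated (left, orange) and sham (right, blue) samples. Marker shape gives the sample number, horizontal lines are means and bars are SD (n = 3 each), and every panel spans the same log2 range. Castrated values lie below sham values for Smpx, Des and Tnni2 and above them for Tcap.

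Several Z-disc and titin-bound genes shared castrated sample 2 as their lowest array. They were picked for that after their values were seen, and were not tested as a set. Csrp3, muscle LIM protein, read 12.71, 11.95 and 12.54 in castrated samples, against 12.70, 12.39 and 12.73 in sham samples. Filamin C, Flnc, which crosslinks actin at the Z-disc, read 12.46, 11.62 and 12.34 in castrated samples, against 12.54, 12.31 and 12.26 in sham samples. Xirp1, an actin-binding protein recruited to damaged sarcomeres, read 11.43, 10.37 and 10.93 in castrated samples, against 11.29, 11.06 and 11.27 in sham samples. In all 3 genes castrated sample 2 was the lowest of the 6 arrays by at least 0.44, while the other samples of both groups intermingled in no shared order: sham sample 3 was the highest array for Csrp3 and the lowest sham sample for Flnc.

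The small heat shock protein Cryab, a chaperone of desmin and titin, had the same low sample. It read 12.24, 11.75 and 12.11 in castrated samples, against 12.30, 12.16 and 11.98 in sham samples. A dimmer probe set of Cryab was also lowest in castrated sample 2, at 8.68, with the others between 9.07 and 9.49.

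Of the ankyrin-repeat genes that bind titin's spring region, Ankrd1 read 11.76, 10.38 and 11.42 in castrated samples, against 11.55, 11.40 and 10.84 in sham samples. It spanned 1.38 over the arrays, the widest range of any member. Ankrd2 read 12.37, 11.70 and 12.28 in castrated samples, against 12.23, 12.20 and 12.42 in sham samples. Ankrd23 read 13.02, 13.25 and 13.01 in castrated samples, against 12.96, 13.12 and 12.72 in sham samples. For Ankrd1 and Ankrd2 castrated sample 2 was again the lowest, whereas for Ankrd23 it was the highest. Sham sample 3 was the lowest sham sample for Ankrd1 and Ankrd23 and the highest array for Ankrd2. The difference of Ankrd23 was 0.16 (SE 0.13, limma adjusted p = 0.828), and 0.055 without sham sample 3.

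The group differences of these genes rested on castrated sample 2. With all samples they were −0.29 for Xirp1, −0.23 for Flnc, −0.21 for Csrp3, −0.17 for Ankrd2, −0.11 for Cryab and −0.078 for Ankrd1, with SEs between 0.15 and 0.33 and limma adjusted p between 0.824 and 0.973. Without castrated sample 2 they were −0.021 for Xirp1, 0.030 for Flnc, 0.018 for Csrp3, 0.040 for Ankrd2, 0.029 for Cryab and 0.32 for Ankrd1. Klhl40 and Hspb1, outside the list, had the same low sample. Klhl40, which stabilises nebulin and leiomodin 3, read 10.45, 8.97 and 9.91 in castrated samples, against 10.37, 9.86 and 9.60 in sham samples, and the heat shock gene Hspb1 read 9.78, 8.90 and 9.59, against 9.94, 9.62 and 9.21.

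Marker lists of other fibres and cells were read beside these values. The summed level of 11 slow-fibre genes, on a log2 scale, was 10.78 in that sample, within 10.76 to 11.46 in castrated and 10.72 to 11.30 in sham samples. The summed level of 5 macrophage genes was lowest there, at 9.04, with ranges of 9.04 to 9.80 in castrated and 9.24 to 10.21 in sham samples. Of those 5 genes Cd68 alone was lowest in castrated sample 2, at 7.47. Adgre1, Csf1r, Mrc1 and Lyz2 were each lowest in another sample. In castrated against sham samples 1 of the 5 genes stood above 0 and 4 below. Without sham sample 1 these turned to 4 above and 1 below. Mean levels of the 5 genes ran from 5.28 to 8.24, and whether they were above background was not tested. Tendon, satellite cell and adipocyte genes mostly stood higher in castrated samples, and no list was tested. The summed level of 8 tendon genes ran from 11.42 to 11.77 in castrated and from 10.73 to 11.65 in sham samples, lowest in sham sample 3. These ranges overlapped, and 7 genes stood above 0 (48.5% of all genes) and 1 below, with a median of 0.50. At an unadjusted p under 0.05 in the limma fit there were 4 of the 8 tendon genes, all higher, against 3.62% of all genes. Groups did not overlap for 2 of the 8, Kera and Mkx, both higher, against 5.73% of all genes. Satellite cell genes ran from 7.94 to 8.13 in castrated and from 7.85 to 7.87 in sham samples, with 5 of 5 above 0, against 48.5% of all genes. Without castrated sample 3 there were 4 above and 1 below, with a median of 0.075. Adipocyte genes ran from 8.18 to 8.26 in castrated and from 7.86 to 8.14 in sham samples, with 5 of 6 above 0 (48.5% of all genes). Mean levels of single genes ran from 4.88 to 6.30 for satellite cell and from 4.32 to 6.00 for adipocyte genes. Some lie near or under the array medians, and whether they were above background was not tested. None of these genes passed over all genes. The summed levels of satellite cell and adipocyte genes did not overlap between groups. Those of fibroblast, endothelial, smooth muscle and Schwann genes did. The part of any of these lists in the members' values was not tested.

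**Figure D3:**
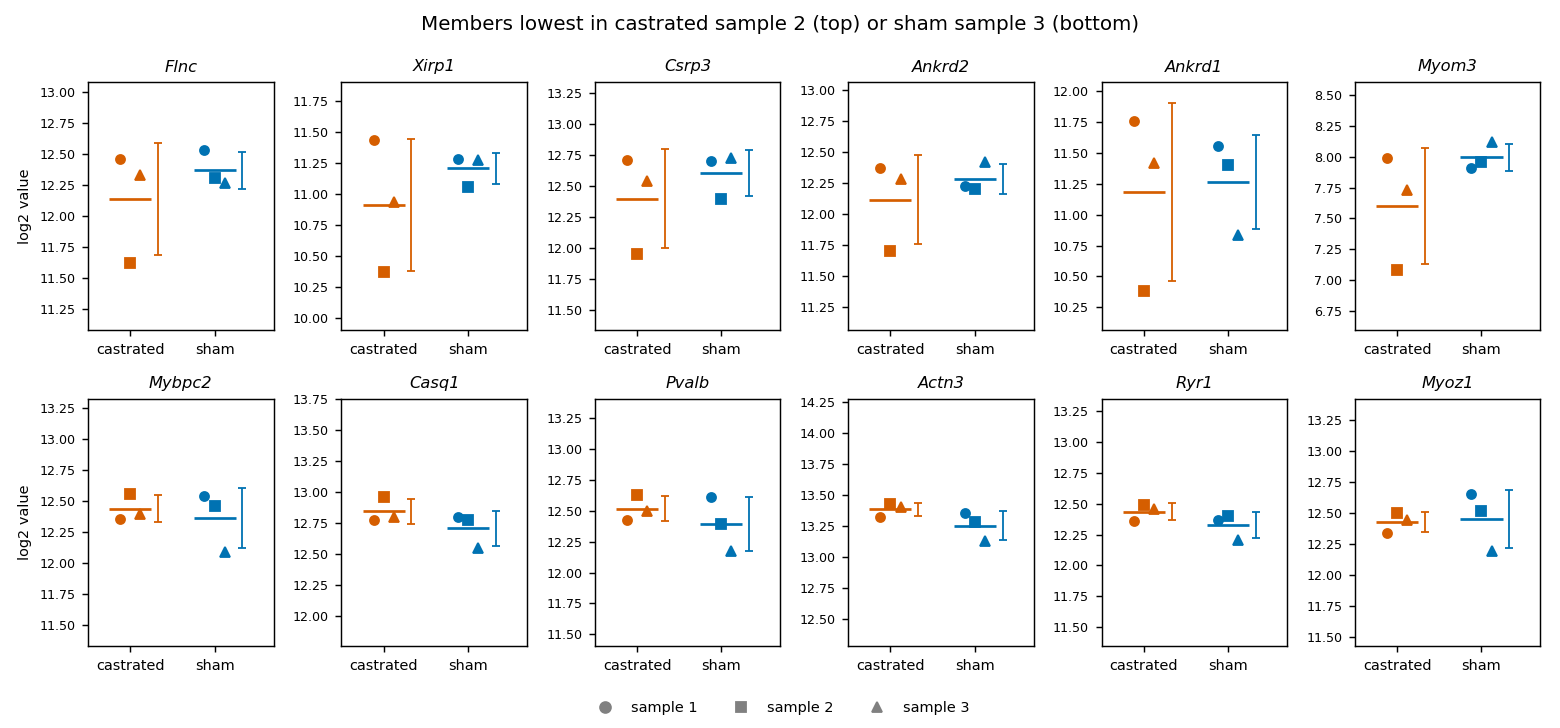
Log2 values of 12 members in castrated (left, orange) and sham (right, blue) samples. Marker shape gives the sample number, lines are means, bars are SD (n = 3 each) and every panel spans the same log2 range. In the upper row castrated sample 2 (square) is the lowest point of each gene, and in the lower row sham sample 3 (triangle) is the lowest.

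Triad and calcium genes had a median difference of 0.028, with 7 of 10 members above 0, and of −0.0083, with 5 above and 5 below, without sham sample 3. All 10 intervals lay within 1.5-fold and no member passed. Ryr1, the calcium release channel, read 12.36, 12.49 and 12.46 in castrated samples, against 12.37, 12.40 and 12.21 in sham samples. Casq1, the fast calsequestrin that stores calcium in the sarcoplasmic reticulum, read 12.77, 12.96 and 12.80 in castrated samples, against 12.79, 12.78 and 12.54 in sham samples. For both genes sham sample 3 was the lowest and castrated sample 2 the highest, and the groups overlapped. The differences were 0.11 (SE 0.10, limma adjusted p = 0.852) for Ryr1 and 0.14 (SE 0.11, limma adjusted p = 0.828) for Casq1. Without sham sample 3 they were 0.049 and 0.058.

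Atp2a1, the fast calcium pump SERCA1, read 13.44, 13.49 and 13.44 in castrated samples, against 13.51, 13.48 and 13.32 in sham samples. The difference was 0.020 (95% interval −0.20 to 0.24), and −0.037 without sham sample 3. Sarcolipin, Sln, a small inhibitor of that pump, read 5.06, 4.45 and 4.57 in castrated samples, against 4.82, 4.56 and 5.02 in sham samples. These values lie near or under the array medians, and whether they were above background was not tested.

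Parvalbumin, Pvalb, the calcium buffer that speeds relaxation of fast fibres, read 12.43, 12.63 and 12.49 in castrated samples, against 12.61, 12.40 and 12.18 in sham samples. The difference was 0.12 (95% interval −0.17 to 0.41), 0.013 without sham sample 3 and 0.23 without sham sample 1. Triadin, Trdn, which ties calsequestrin to the release channel, read 12.31, 12.38 and 12.37 in castrated samples, against 12.18, 12.33 and 12.22 in sham samples. Its groups overlapped through castrated sample 1 and sham sample 2 alone, and the difference was 0.11 (SE 0.095, limma adjusted p = 0.845).

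Stac3, which couples the voltage sensor to the release channel, ran the other way. It read 8.73, 9.04 and 8.79 in castrated samples, against 9.20, 9.10 and 8.73 in sham samples. Castrated samples 1 and 3 and sham sample 3 were the low ones. The difference was −0.16 (SE 0.15, limma adjusted p = 0.851), −0.30 without sham sample 3 and −0.064 without sham sample 1. Jph2, a junctophilin that holds the triad membranes together, read 8.50, 8.80 and 8.64 in castrated samples, against 9.10, 8.80 and 8.35 in sham samples, and differed by −0.10 with all samples, −0.30 without sham sample 3 and 0.069 without sham sample 1.

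The low values of sham sample 3 crossed structural groups. Actn3, the alpha-actinin of fast glycolytic fibres, read 13.32, 13.43 and 13.40 in castrated samples, against 13.36, 13.28 and 13.13 in sham samples, a difference of 0.13 (SE 0.10, limma adjusted p = 0.823) that was 0.067 without sham sample 3. Myoz1, the fast-fibre calsarcin that binds calcineurin at the Z-disc, read 12.34, 12.50 and 12.44 in castrated samples, against 12.65, 12.52 and 12.20 in sham samples. Actn2, the alpha-actinin of all fibres, had its highest value in sham sample 3, at 12.66, and its lowest in castrated sample 2, at 12.39.

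Of the fibre-type markers outside the list, Myh2 and Myoz2 were highest in sham sample 3 and were picked after their values were seen. They were not alone: the extraocular myosin Myh13 and the developmental genes Myh3, Myh8 and Tnnt2 were also highest there. Myh4 and the developmental gene Myl4 were lowest there. Myh2, the myosin of fast oxidative fibres, stood at 11.80 in sham sample 3, against 10.65 and 11.26 in the other sham samples, and at 11.53, 11.12 and 11.12 in castrated samples. Myoz2, the slow-fibre calsarcin, stood at 10.30 in sham sample 3, against 9.22 and 9.75 in the other sham samples, and at 9.58, 9.28 and 9.29 in castrated samples. Other slow-fibre genes were mixed: of the 11, 1 was highest and 2 were lowest in sham sample 3, and 9 were highest in castrated sample 1. Among sham samples alone, sample 3 was also the highest for Myl3, Casq2, Tnnt1 and Myh7, and the lowest for Myl2, Tpm3 and Myh7b. Sham samples 1, 2 and 3 read 7.19, 7.01 and 7.75 for Myl3, and 7.80, 7.93 and 8.47 for Casq2. The summed level of the list, to which Myoz2 contributes most, was 11.30 in sham sample 3 and 11.46 in castrated sample 1. With all samples 9 of the 11 genes stood above 0 and 2 below, with a median of 0.29, and without castrated sample 1 there were 4 above and 7 below, with a median of −0.075. At an unadjusted p under 0.05 there was 1 of the 11, Casq2, higher in castrated samples, against 3.62% of all genes. Its groups overlapped. Mean levels of the 11 genes ran from 5.37 to 9.57, and whether the lowest were above background was not tested. The part of the 11 genes in the values of sham sample 3 was not tested.

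Group means of the fibre-type lists were as follows, and those of the slow-fibre genes rest largely on castrated sample 1. Among slow-fibre genes, the troponin C gene Tnnc1 averaged 7.01 in castrated and 6.48 in sham samples, Casq2 8.47 and 8.07, Tnnt1 5.90 and 5.47, Tnni1 6.03 and 5.71, and the slow calcium pump Atp2a2 8.34 and 8.05. Myl2 averaged 5.65 in castrated and 5.45 in sham samples, Myl3 7.44 and 7.32, Myh7b 5.45 and 5.29, Tpm3 6.41 and 6.56, Myh7 5.90 and 5.37, and Myoz2 9.38 and 9.76. None passed over all genes. Without castrated sample 1 the differences turned to −0.018 for Tnnc1, −0.075 for Tnni1, −0.080 for Atp2a2, −0.16 for Myl3 and −0.23 for Myh7, and were 0.10 for Tnnt1, 0.024 for Myl2, 0.044 for Myh7b and 0.33 for Casq2. Of the developmental genes Myh3 averaged 4.49 in castrated and 4.72 in sham samples, Myh8 6.28 and 6.51, Myl4 6.33 and 6.17, and Tnnt2 6.36 and 6.54, and Actc1 alone passed. Of the fast genes Myh1 averaged 12.70 in castrated and 12.86 in sham samples, Myh2 11.26 and 11.24, Myh4 13.57 and 13.55, Acta1 13.53 and 13.58, and the extraocular myosin Myh13 5.31 and 5.49.

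**Figure D4:**
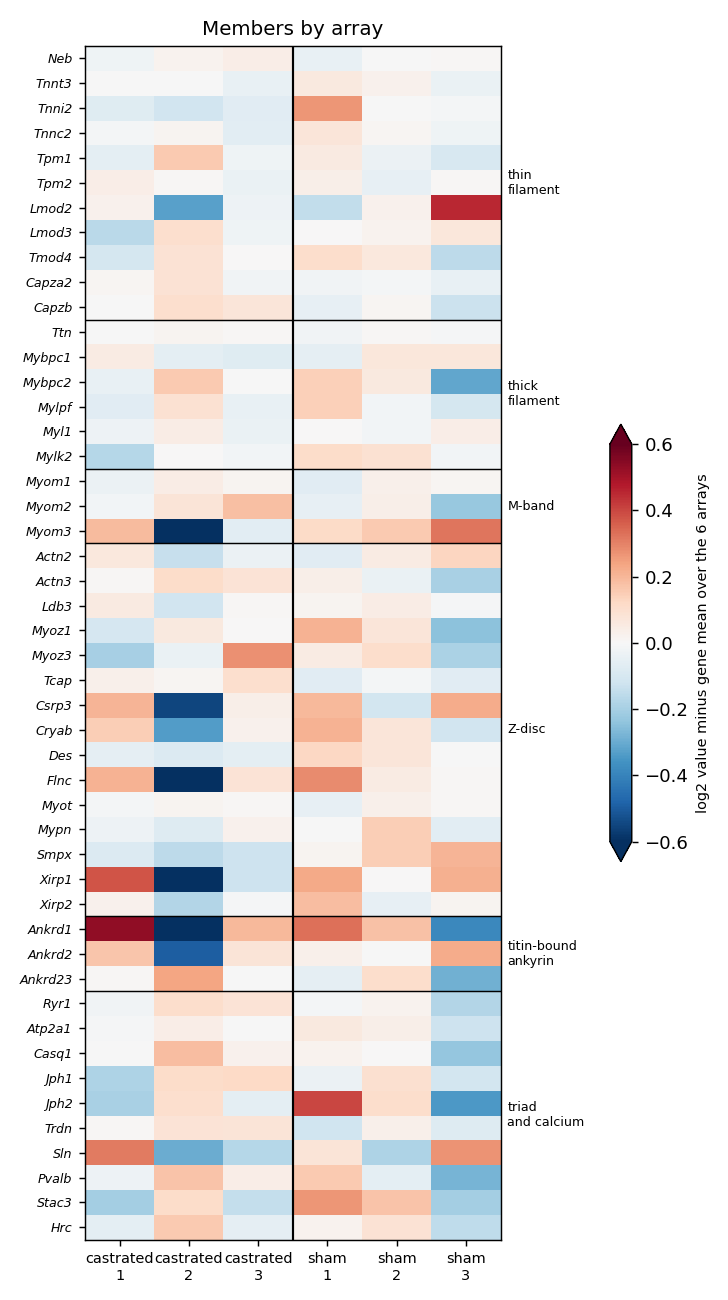
Each member's log2 value minus its mean over the 6 arrays, with castrated samples left and sham samples right of the vertical line, and members grouped by structure. Red is above and blue below the gene's mean, and colours stop at 0.6. Castrated sample 2 is blue for Csrp3, Flnc, Xirp1, Ankrd1, Ankrd2 and Myom3, and sham sample 3 is blue for most triad genes.

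Further sarcomere and triad genes were read from the same fit. Of 30 other measured sarcomere genes none passed over all genes, and at an unadjusted p under 0.05 there were 2 higher (3.62% of all genes) and 2 lower (3.51% of all genes). Their median difference was 0.00054. Fhl3, a LIM protein of muscle, had the smallest p and read 9.86, 9.86 and 10.10 in castrated samples, against 10.46, 10.41 and 10.42 in sham samples. The groups did not overlap, and the difference was −0.49 (SE 0.10, limma adjusted p = 0.434). The titin-associated ubiquitin ligases of the MuRF family stood on opposite sides, with Trim55 (MuRF2) at 0.31 (SE 0.097, limma adjusted p = 0.646) and Trim54 (MuRF3) at −0.31 (SE 0.12, limma adjusted p = 0.682). Mylk4, a myosin light chain kinase relative, stood at 0.43 (95% interval 0.0087 to 0.86), with groups that overlapped.

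Of 28 other measured triad and calcium genes none passed over all genes, and at an unadjusted p under 0.05 there were 0 higher (3.62% of all genes) and 4 lower (3.51% of all genes). Their median difference was −0.080, with 21 below 0 (51.5% of all genes), and −0.019, with 15 below 0, without sham sample 1. Cav3, the muscle caveolin of the T-tubule and surface membrane, read 6.77, 6.92 and 6.78 in castrated samples, against 7.20, 7.14 and 7.08 in sham samples. Its groups did not overlap, and the difference was −0.32 (SE 0.097, limma adjusted p = 0.642). S100a1, a calcium-binding modulator of the release channel, differed by −0.35 (SE 0.12, limma adjusted p = 0.668), and Fkbp1b, which stabilises the closed channel, by −0.43 (SE 0.15, limma adjusted p = 0.668) at the 17.5th percentile of level. The fourth, Tmem38b, a counter-ion channel of the reticulum, differed by −0.31 (SE 0.12, limma adjusted p = 0.682).

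Members with more than 1 probe set were Cryab, Ryr1 and Xirp2. Their dimmer probe sets differed by −0.064, 0.015 and 0.076, against −0.11, 0.11 and −0.10 for the ones used, so Xirp2 differed in sign between its probe sets and had no settled direction. Over the 48 members the spread between samples of a group, as a pooled SD, had a median of 0.10, against 0.080 for genes in the top 1% by level and 0.15 for all genes. It ran from 0.012 for Ttn to 0.57 for Ankrd1. Whether signals this high on the array understate differences was not tested.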

How the data were processed

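The table the authors deposited holds log2 expression values for 41345 probe sets on 6 arrays. The submitters' processing notes name Partek, with no version. Whether and how background was corrected, probes summarized and arrays normalized is not given in the sources used here. The 6 arrays limit the precision, and no read depth applies.

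Of the probe sets 23521 name 1 gene, 1814 several and 16010 none. Symbols were updated through Entrez identifiers. Genes were fitted with limma 3.58.1 in R 4.3.3 (lmFit, eBayes, castrated minus sham, no covariate, no filter), adjusted by Benjamini-Hochberg over 22180 genes, threshold 0.05. The fit was tested on simulated data. The labels name a mouse for each sample but do not number the animals, and a p-value covers only how these 6 samples vary.

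The members and lists were chosen with earlier results of these data known. Described in full were every member past the threshold (none), from each structural group its 2 smallest p (1 in groups of 3), a list of members named whatever their values, the 3 genes with the smallest p of each list of other sarcomere and triad genes, and the fibre-type lists as group means. Flnc, Cryab, Myom2, Actn2, Myoz1, Mybpc2, Jph2, Mylk4, Klhl40, Hspb1 and Tmem38b, and the per-sample values of Myh2, Myh7, Myoz2 and Actc1, were added after their values were seen.

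Samples with the same number were not treated as pairs, since their deviations from the group means correlated at 0.076, 0.033 and 0.047. Alternatives were 3 normalizations, 2 filters, the mean of probe sets, the replicate block, 2 variance priors, another threshold and leaving out each sample, the last also for the structural groups and marker lists, chosen after seeing the data. Figures used matplotlib 3.10.9.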

Additional observations from a re-analysis of the deposited data

How the results depend on the processing

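No member passed over all genes under any of the 15 alternatives or at an adjusted p under 0.10 (limma). The count at an unadjusted p under 0.05, 1 lower and 0 higher, was 0 lower after quantile normalization, after cyclic loess and with the replicate block, and 2 lower and 1 higher without variance moderation. Leaving out 1 sample gave 0 to 3 lower and 0 higher, with 3 without castrated sample 1, and 0 without sham sample 2, castrated sample 2 or castrated sample 3. Members with groups that did not overlap, 3 lower and 1 higher, came to 4 higher after quantile normalization and after cyclic loess, and to 0 higher after centring on array medians. Leaving out a sample gave 1 to 9 higher, with 9 if castrated sample 1 was dropped, 6 for sham sample 2, 3 for sham sample 1 and 2 for castrated sample 3, and 3 to 8 lower, with 8 without sham sample 3 and 6 without castrated sample 1 or 2. With 1 sample fewer, groups separate more readily by chance. The matching shares of all genes are not given for these leave-outs or the normalizations, so the non-overlap counts are no result about the members. Over all genes 3 passed, and 9 with the filter at the 25th percentile, 16 at the 50th and 10 with a trended robust prior. There were 2 with the replicate block and none without moderation. Intervals within 1.5-fold numbered 37 without moderation and 40 to 45 with a sample left out. The median over members ran from −0.046 to 0.0014 with a sample left out. Of 48 members 26 kept their sign in all 6 leave-outs and 35 under the normalizations, centring and mean of probe sets.

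Same-numbered samples correlated best with each other in all 3 cases, at under 0.1, which is a hint from the data and not from the design. The block changed no call over all genes among members.

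Sign changes concerned differences that had not passed, and their cause was not tested. Quantile normalization gave 0.0088 for Mybpc1, −0.030 for Ttn and 0.028 for Mylpf, and cyclic loess 0.0015 for Mylpf. Centring on array medians, which moved the median of all genes to −0.043, gave −0.023 for Ttn, −0.012 for Neb, −0.018 for Atp2a1, −0.017 for Myh2 and −0.017 for Myh4. Leaving out a sample gave ranges across 0 of −0.069 to 0.054 for Mylpf, −0.36 to 0.018 for Csrp3, −0.36 to 0.32 for Ankrd1, −0.29 to 0.040 for Ankrd2, −0.037 to 0.055 for Atp2a1, −0.29 to 0.015 for Sln, −0.39 to 0.030 for Flnc, −0.21 to 0.029 for Cryab. For the other genes whose sign turned they were −0.15 to 0.073 for Myoz1, −0.064 to 0.16 for Mybpc2, −0.30 to 0.069 for Jph2, −0.50 to 0.24 for Klhl40, −0.36 to 0.094 for Hspb1, −0.27 to 0.30 for Myh2, −0.0061 to 0.035 for Myh4 and −0.23 to 0.92 for Myh7. Actc1 kept its difference of 1.60 but not its call without variance moderation (limma fit, adjusted p = 0.312). Each of the 6 structural groups' medians changed sign when some 1 sample was left out.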
